A study of Ovis aries with 95 samples.

Results

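The genes examined were CD3D, CD3E, CD3G, CD4, CD5 and GNLY, which are used as markers of T cells and of cytotoxic lymphocytes. Every gene probe of the array whose name, source record or description gave one of these 6 genes was taken, which found 13 probes among the 15008 distinct gene probes and 6 genes among the 986 that carried a symbol. RNA came from whole dissected cortex (a section of the frontal cortex), brainstem, hippocampus and hypothalamus of untreated sheep. The fetuses were labelled 80, 100, 120, 130 and 145 d of gestation, and the lambs were taken 1 d after birth, called newborn here. The methods give a range of days for the 100 d and 145 d groups, and that of the latter ends before 145 d. Each group had 4 arrays, apart from hippocampus at 100 d with 3, so that 95 single-colour arrays were measured. The methods state that the ewes showed no signs of labor and that every group included 1 set of twins. By the count of fetuses in the methods the regions were taken from the same animals. Which animals were twins, and which arrays of different regions came from the same animal, is not given in the labels, and the tests treat the arrays as independent. The question was how the level of each gene changed with age in each region.

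CD3D, CD3E and CD3G encode the delta, epsilon and gamma chains of CD3, the complex that carries T cell receptor signals into the cell. These chains also help to bring the receptor to the cell surface. CD4 is the coreceptor of helper T cells and is also found on some myeloid cells. CD5 is a scavenger receptor family protein of T cells and of a subset of B cells that dampens antigen receptor signals. GNLY encodes granulysin, a protein of the granules of cytotoxic T cells and natural killer cells that damages microbial and target cell membranes. The healthy brain holds few lymphocytes, which lie mostly in the meninges, the choroid plexus and the vessels.

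The probes of a gene were not independent of each other, and their sequences show why the results for GNLY and CD4 have to be read by pairs. All probes had 60 bases. GNLY had 4 probes, a pair from an mRNA record and a pair from an expressed sequence tag (EST), a single read of a cDNA clone, made here from sheep gastric lymph. In the sequences below, capitals mark the bases that both probes of a pair hold, and all are given as the files list them.
GNLY mRNA probe 1: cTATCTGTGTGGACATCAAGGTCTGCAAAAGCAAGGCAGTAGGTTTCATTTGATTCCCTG
GNLY mRNA probe 2: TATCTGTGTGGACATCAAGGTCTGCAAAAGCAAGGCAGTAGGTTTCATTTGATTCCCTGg
GNLY EST probe 1: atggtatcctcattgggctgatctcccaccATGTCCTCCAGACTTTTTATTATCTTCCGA
GNLY EST probe 2: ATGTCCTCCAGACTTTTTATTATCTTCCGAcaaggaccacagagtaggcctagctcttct
CD4 probe 1: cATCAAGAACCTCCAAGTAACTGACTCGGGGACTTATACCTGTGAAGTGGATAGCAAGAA
CD4 probe 2: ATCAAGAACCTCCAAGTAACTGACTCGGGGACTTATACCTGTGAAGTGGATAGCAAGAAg

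The GNLY mRNA probes shared 59 of their 60 bases, as did the CD4 probes, so each of these pairs measured a single site. The GNLY EST probes shared 30 bases, and the strand of the EST relative to the mRNA is not given in the sources used here. Among the other genes, the CD5 probes shared 59 bases, the CD3D probes shared 30, the CD3E probes lay apart in their record, and CD3G had 1 probe.

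Values are log2 intensities after background correction and normalization between arrays, and levels are compared only within a probe or gene, never between genes. A spot was called well above background by the scanner software. The dimmest spot called so had a log2 value of 5.71 to 6.69 on the single arrays (median 6.46), and 59.7 to 88.6% of the probes of an array were called. Before the results, 6 arrays have to be set apart, because their median correlation with the other arrays of their region was under 0.9. They were the hippocampus arrays 100 d replicate 3, 120 d replicate 4, 130 d replicate 3, 145 d replicate 4 and newborn replicate 3, all on slide 4 of that region, and brainstem newborn replicate 4. Calls from 80 d to newborn in these regions are given with and without them. In whole tissue, fewer cells of a type and less RNA per cell cannot be told apart.

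The share of arrays with a signal well above background set the genes apart. CD5 was detected by at least 1 probe on 95 of 95 arrays, with 94 of 95 for each probe. The CD3E probes were detected on 92 and 94 arrays and the CD3D probes on 76 and 89. CD3G was detected on 55 of 95 arrays, or 57.9%, and its share moved with age, from 3 of 16 at 80 d to 7 of 15 at 100 d, 14 of 16 at 120 and at 130 d, 4 of 16 at 145 d and 13 of 16 in newborn lambs. Each GNLY mRNA probe was detected on 22 of 95 arrays, or 23.2%, while EST probe 1 was detected on 88 and EST probe 2 on 21. At least 1 mRNA probe of GNLY was detected on 12 of the 16 newborn arrays and on 7 of 16 at 120 d, but on 2 of 16 at 80 d, 2 of 15 at 100 d, 0 of 16 at 130 d and 3 of 16 at 145 d. Of all gene probes on the array, 14.3% had a lower share of detected arrays than the GNLY mRNA probes, 21.1% than CD3G and 47.6% than the CD5 probes.

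**Figure D1:**
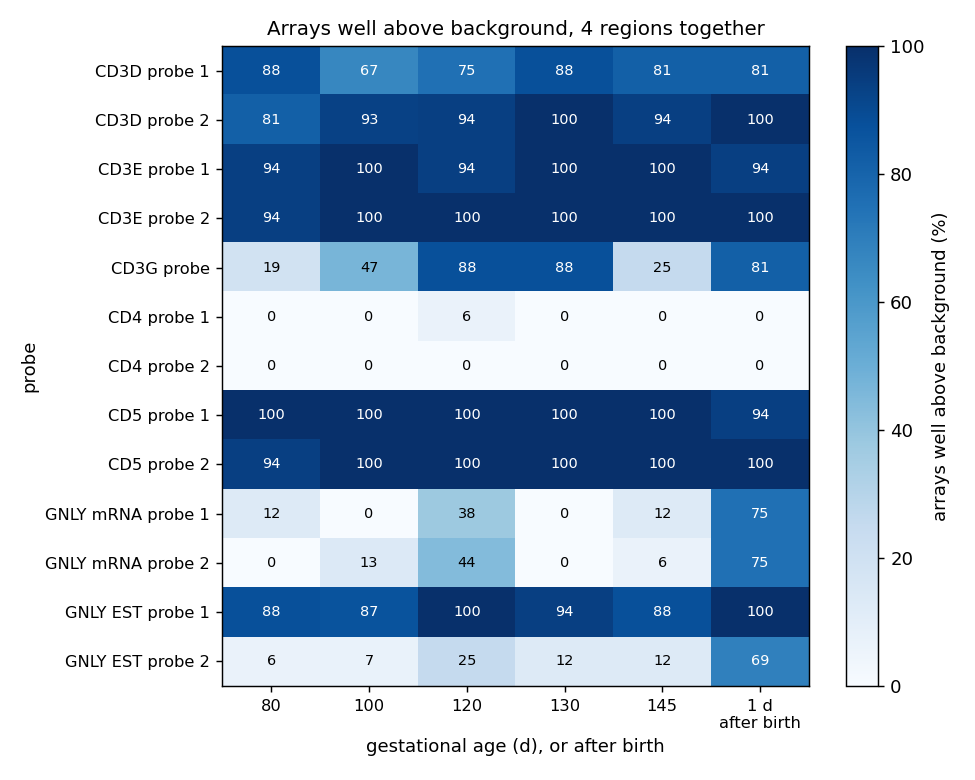
Percent of arrays on which each of the 13 probes was well above background, with the 4 regions pooled at each age (16 arrays, or 15 at 100 d). The CD5 and CD3E probes were detected on nearly every array at every age, the CD4 probes on 1 array in all, and the GNLY mRNA probes mainly in newborn lambs and at 120 d.

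CD4 could not be measured. CD4 probe 1 was well above background on 1 of 95 arrays (cortex at 120 d, replicate 1, 6.60), or 1.05%, and probe 2 on 0 of 95. The gene value lay between 6.28 and 6.60 on all arrays. No CD4 probe passed the filter on dim probes in any region, so the gene was not tested. Without the filter the change from 80 d to newborn was −0.02 in the cortex, 0.03 in the brainstem, −0.04 in the hippocampus and −0.02 in the hypothalamus, with adjusted p of 0.77, 0.68, 0.86 and 0.85, which at this signal says nothing about CD4 RNA. The other 5 genes passed the filter in every region. GNLY passed with 3 probes in the cortex and hippocampus and with 4 in the brainstem and hypothalamus, and its mRNA probes did so mainly through the newborn and the 120 d arrays, where they were high.

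In newborn lambs GNLY stood far above the background on most arrays of every region. From 80 d to newborn the mean of its mRNA pair went from 6.50 ± 0.15 to 8.68 ± 1.67 in the cortex, from 6.46 ± 0.047 to 8.95 ± 1.81 in the brainstem, from 6.39 ± 0.070 to 8.73 ± 1.63 in the hippocampus and from 6.42 ± 0.035 to 9.08 ± 1.95 in the hypothalamus (log2, mean ± SD, n = 4). The large SD in newborn lambs came from 1 array of each region that stayed at background. The 4 newborn values were 6.39, 10.14, 8.53 and 9.65 in the cortex, and 6.54, 10.77, 8.75 and 9.76 in the brainstem. In the hippocampus they were 10.30, 8.39, 6.59 and 9.64, and in the hypothalamus 6.40, 11.005, 9.09 and 9.83. The low arrays were replicate 1 in the cortex, brainstem and hypothalamus and replicate 3 in the hippocampus, and none of them was well above background, while the other 12 arrays all were. At 80 d the pair lay between 6.37 and 6.72 in the cortex, 6.40 and 6.50 in the brainstem, 6.30 and 6.47 in the hippocampus and 6.39 and 6.46 in the hypothalamus. The 1 low newborn array of each region thus lay at the level of the 80 d arrays, where values at background have no order, and the other 3 lay above all of them.

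**Figure D2:**
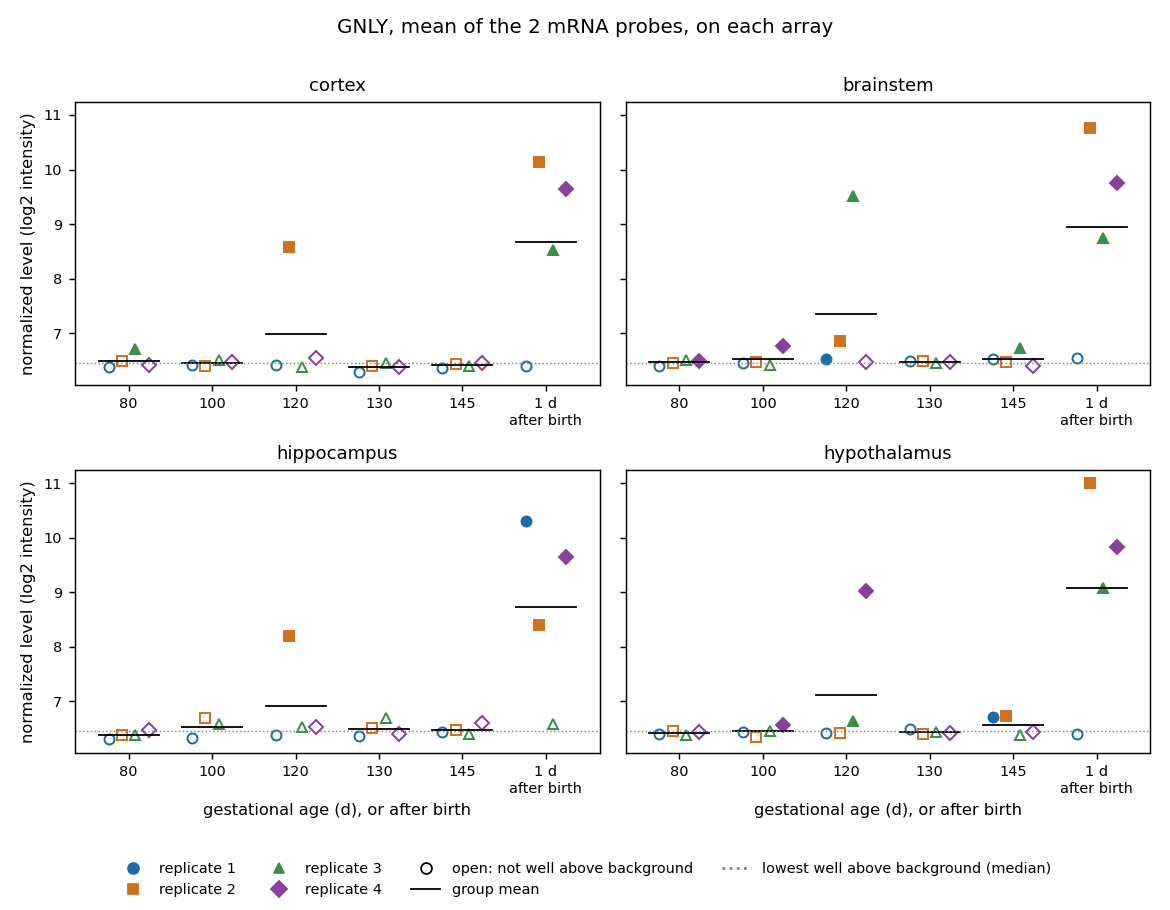
Mean log2 intensity of the 2 GNLY mRNA probes on each array, by age and region; open circles were not well above background, bars are group means and the dotted line is the median of the lowest signal well above background. In each region 3 of 4 newborn arrays and 1 array at 120 d stand above 8, and all other arrays lie between 6.29 and 6.85.

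Averaged over its probes, GNLY rose from 80 d to newborn in all 4 regions, by 1.56 ± 0.37 in the cortex (SE; adjusted p = 0.0016), 1.49 ± 0.34 in the brainstem (0.0016), 1.87 ± 0.34 in the hippocampus (0.0018) and 1.60 ± 0.35 in the hypothalamus (0.0026). Without the arrays that stand apart it rose by 2.25 in the hippocampus (0.00036), which then holds no newborn array at background, and by 1.29 in the brainstem (0.0054). With the mRNA pair alone the rise was larger, at 2.18, 2.49, 2.34 and 2.66, with adjusted p of 0.0019, 0.0033, 0.0098 and 0.0056. The fit takes the spread as equal at all ages, while newborn arrays spread far more in the mRNA pair than 80 d arrays. These adjusted p thus rest in part on the small spread of fetal arrays at background. The filter on dim probes also kept the mRNA probes mainly through the arrays on which they were high, newborn arrays among them. Each mRNA probe was well above background on 4 of 23 hippocampus arrays, and on 5 (probe 1) and 4 (probe 2) of 24 cortex arrays. Their entry into the test was therefore not independent of the rise, and the adjusted p do not allow for this. Where no 80 d array was well above background, the linear difference of the mRNA pair has only a lower bound, set by the lowest signal well above background on each 80 d array. It was at least 4.74-fold in the hippocampus and at least 6.11-fold in the hypothalamus.

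The EST probes moved less than the mRNA pair. EST probe 1 changed by 0.32 in the cortex (adjusted p = 0.14) and 0.91 in the hippocampus (0.12), which did not pass, and rose by 0.71 in the brainstem (0.0069) and 0.73 in the hypothalamus (0.015). EST probe 2, kept in 2 regions, rose by 0.28 in the brainstem (0.015) and 0.35 in the hypothalamus (0.010). The gene value of GNLY is therefore an average of probes that differed in the size of the change.

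Most of the rise of GNLY lay between the last fetal age and the first day after birth. From 145 d to newborn it rose by 1.32 ± 0.34 in the brainstem (adjusted p = 0.032) and 1.41 ± 0.35 in the hypothalamus (0.040). No other of the 5 genes passed this comparison in any region. The myeloid genes CD14 and ITGAM rose in it as well, CD14 by 0.71 (0.020) and ITGAM by 0.42 (0.039) in the brainstem and CD14 by 0.72 (0.048) in the hypothalamus, and their part in the result was not tested. In the same comparison 3.68% of all genes were called higher in the brainstem and 1.42% in the hypothalamus. In the cortex the difference was 1.51 (adjusted p = 0.11) and in the hippocampus 1.68 (0.30). Few genes at all were called there, 0.163% higher in the cortex and 0.00788% in the hippocampus. For the mRNA pair, with no 145 d array well above background, the newborn mean was at least 4.60-fold higher in the cortex and at least 4.76-fold in the hippocampus. Without the array that stands apart the brainstem difference was 1.12 with an adjusted p of 0.072, and without the 5 in the hippocampus that difference was 2.11 with an adjusted p of 0.026. Leaving out 1 array at a time, the brainstem call was lost in 6 of 24 cases and the hypothalamus call in 10 of 24, with values of 1.04 to 1.78 and 1.02 to 1.88.

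At 120 d a single array of each region had a GNLY value above 8, and the others that were well above background lay between 6.53 and 6.85. The mRNA pair was 6.42, 8.58, 6.38 and 6.55 in the cortex, 6.53, 6.85, 9.52 and 6.48 in the brainstem, 6.38, 8.19, 6.53 and 6.54 in the hippocampus, and 6.42, 6.41, 6.63 and 9.02 in the hypothalamus. The high array was replicate 2 in the cortex, 3 in the brainstem, 2 in the hippocampus and 4 in the hypothalamus. In hippocampus replicate 2 the 2 nearly identical mRNA probes differed, with 7.03 and 9.36. The same 4 arrays were the highest of the 120 d arrays of their region for CD3D (7.59, 8.06, 7.85 and 8.37), for CD3E (8.12, 8.79, 8.52 and 8.84) and for CD3G (8.30, 8.44, 8.41 and 8.94). The other 120 d arrays lay between 6.76 and 7.03 for CD3D. The step from 100 to 120 d passed for none of the genes in any region, beside 3.06% of all genes called higher in the cortex, 1.71% in the brainstem, 0.00788% in the hippocampus and 0.719% in the hypothalamus. The hypothalamus array, replicate 4, was the only one on its slide, so array and slide cannot be told apart there. The labels do not say whether a replicate number marks the same animal in different regions. Whether these 4 arrays came from a single fetus was not tested.

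The globin gene HBB was high on these 4 arrays. HBB, the beta chain of adult hemoglobin, was 12.99, 15.09, 14.33 and 13.44 at 120 d in the cortex and 13.07, 14.23, 15.24 and 13.68 in the brainstem. In the hippocampus it was 11.18, 13.47, 13.19 and 12.36, and in the hypothalamus 13.55, 14.13, 13.49 and 15.61. The array highest in HBB was in each region the one highest in GNLY. AHSP, which stabilizes free alpha globin, was highest on the same array in the cortex (8.65), brainstem (8.78) and hypothalamus (8.45), but not in the hippocampus (7.70, against 8.41 in replicate 4). EPOR, the erythropoietin receptor, was highest on it in no region. The mean of the 3 erythroid genes with a probe (HBB, AHSP and EPOR, of 9 listed) ranged at 120 d from 8.99 to 10.2 in the cortex, 9.31 to 10.5 in the brainstem, 8.63 to 9.67 in the hippocampus and 9.45 to 10.3 in the hypothalamus. In newborn lambs HBB was 12.21, 11.58, 12.60 and 12.22 in the cortex, 12.29, 11.58, 12.75 and 13.38 in the brainstem, 11.08, 12.01, 11.53 and 15.04 in the hippocampus and 11.42, 12.07, 12.62 and 11.88 in the hypothalamus. The newborn array highest in GNLY was the lowest in HBB in every region but the hypothalamus, and hippocampus replicate 4, the highest in HBB, was also the highest in CD3G (9.09). The part of blood RNA in these values was not tested.

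From 80 d to newborn the CD3 chains passed in 6 of 12 tests of a chain in a region, each time upward, and in none in the hypothalamus. The 3 chains and CD5 passed together with GNLY in the cortex, so that 5 of the 5 genes tested were called higher, beside 19.8% of all genes. In the brainstem CD3D, CD3E, CD5 and GNLY were called (4 of 5, beside 21.8%), in the hippocampus CD3E and GNLY (2 of 5, beside 2.37%), and in hypothalamus CD5 and GNLY (2 of 5, beside 8.16%). None of the 5 was called lower in any region, beside 25%, 21.1%, 3.38% and 9.88% of all genes in the same order. The median change of the 5 genes was 0.88, 0.80, 1.04 and 0.80 in the cortex, brainstem, hippocampus and hypothalamus, beside −0.03, 0.03, −0.02 and −0.03 over all genes. These counts describe genes that had to be bright somewhere to be tested.

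CD3D in newborn lambs was 6.70, 7.90, 7.44 and 7.89 in the cortex, 6.78, 8.31, 7.48 and 7.13 in the brainstem, 8.44, 7.60, 6.96 and 7.60 in the hippocampus and 6.78, 8.70, 7.62 and 7.28 in the hypothalamus. At 80 d it lay between 6.54 and 6.92, 6.65 and 6.83, 6.73 and 7.01, and 6.67 and 6.91. The newborn array that was at background for GNLY was also the lowest for CD3D, within or below the 80 d range, so the groups overlapped in every region. CD3D rose by 0.70 ± 0.20 in the cortex (SE; adjusted p = 0.0064) and 0.67 ± 0.25 in the brainstem (0.032), and the differences of 0.78 ± 0.25 in the hippocampus (0.073) and 0.80 ± 0.31 in the hypothalamus (0.080) did not pass. Without the arrays that stand apart the hippocampus difference was 1.01 with an adjusted p of 0.013, and the brainstem difference 0.77 with 0.020. With the slide as a block the hypothalamus difference was 0.78 with an adjusted p of 0.026. The high hypothalamus array at 120 d, replicate 4, was alone on its slide, so this fit also takes it out of the spread.

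CD3E in newborn lambs was 7.08, 8.73, 7.97 and 7.83 in the cortex, 7.16, 9.09, 7.97 and 7.62 in the brainstem, 9.12, 7.92, 7.88 and 8.0 in the hippocampus and 7.08, 9.46, 8.29 and 7.96 in the hypothalamus. At 80 d it was 6.69 to 7.39, 6.99 to 7.22, 6.92 to 7.39 and 7.07 to 7.72. In the hippocampus all newborn arrays lay above all 80 d arrays, and in the other regions 1 newborn array lay among them. CD3E rose by 0.86 ± 0.25 in the cortex (adjusted p = 0.0064), 0.80 ± 0.32 in the brainstem (0.047) and 1.06 ± 0.30 in the hippocampus (0.039), and the 0.74 ± 0.35 in the hypothalamus did not pass (0.16). The brainstem call is weak, since it was lost in 16 of 24 cases when 1 array was left out and had an adjusted p of 0.054 without the filter on dim probes. The hippocampus call was lost in 6 of 23 cases. With the slide as a block neither passed, at 0.77 in the brainstem (0.062) and 1.04 in the hippocampus (0.090). Without the arrays that stand apart both did, at 0.92 (0.032) and 1.17 (0.026). The probe nearer the end of the record, CD3E probe 2, changed by 1.18, 1.22, 1.49 and 1.15 in the 4 regions and probe 1 by 0.55, 0.39, 0.62 and 0.32.

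In newborn lambs CD3G ordered the arrays in another way than the other chains. It was 6.70, 6.89, 8.12 and 7.88 in the cortex, 6.61, 7.17, 8.19 and 6.31 in the brainstem, 6.89, 7.84, 6.44 and 9.09 in the hippocampus and 6.76, 7.20, 8.14 and 7.56 in the hypothalamus. The newborn array that was highest in CD3D, CD3E and GNLY held 6.89, 7.17, 6.89 and 7.20 in CD3G, and was the highest in none of the regions. At 80 d no array was well above background in the cortex, hippocampus and hypothalamus. CD3G rose by 0.88 ± 0.29 in the cortex (adjusted p = 0.018) and the differences of 0.52 ± 0.32 in the brainstem, 1.03 ± 0.43 in the hippocampus and 0.78 ± 0.35 in the hypothalamus did not pass (0.20, 0.20 and 0.13). In linear terms the newborn mean was at least 1.77-fold higher in the cortex, and at least 1.99-fold in the hippocampus and 1.72-fold in the hypothalamus, where the test was not passed. Without newborn replicate 3 the cortex change was 0.64 with an adjusted p of 0.088, and without replicate 4 it was 0.72 with an adjusted p of 0.069. Without the arrays that stand apart, the brainstem difference was 0.78 with an adjusted p of 0.047 and the hippocampus difference 1.40 with 0.052. With the slide as a block the hypothalamus difference was 0.74 with an adjusted p of 0.019, in a fit that also takes the high 120 d array out of the spread.

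**Figure D3:**
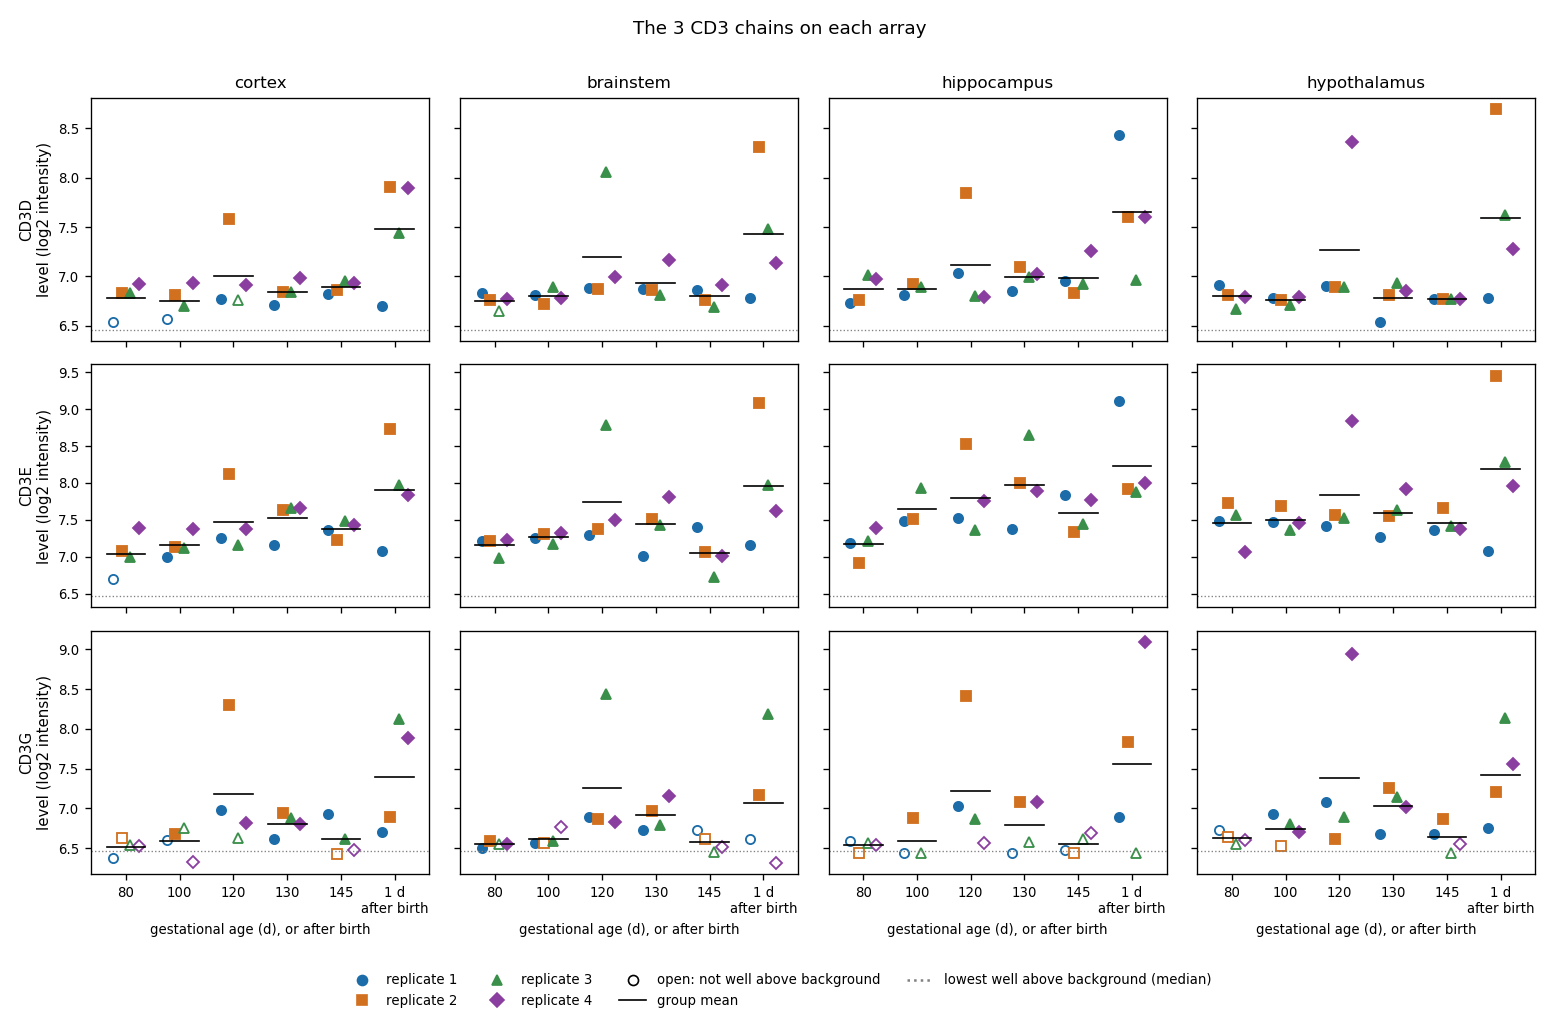
Log2 intensity of CD3D, CD3E and CD3G (rows) on each array, by age and region (columns); bars are group means and open circles were not well above background. The single high array at 120 d of each region and the wide spread of the newborn arrays are seen in all 3 genes.

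Whether the genes rose on the same animals was examined with the deviations of the arrays from the mean of their age group, in 6 pairs of CD3D, CD3E, CD3G and CD5 in 4 regions, or 24 comparisons (permutation within age groups, 100000 resamples, two-sided, adjusted over the 24). CD3D and CD3E varied together in every region, with Pearson's r of 0.87 in the cortex, 0.95 in the brainstem, 0.76 in the hippocampus (n = 23) and 0.94 in the hypothalamus (n = 24 in the others) and adjusted permutation p of 0.0029, 0.0043, 0.0085 and 0.0085. Spearman's rho was 0.82, 0.75, 0.75 and 0.77, with adjusted permutation p of 0.0019, 0.012, 0.0047 and 0.011. Without the 2 arrays farthest from the median of CD3D, r was 0.76, 0.86, 0.49 and 0.85. The other 20 comparisons did not pass by Pearson's r. By rho, CD3G passed in the brainstem with CD3D (0.77, adjusted permutation p = 0.023) and with CD3E (0.85, 0.0047). With deviations from the mean of slide and age, r of CD3D and CD3E was 0.79, 0.97, 0.61 and 0.54 over 10 to 12 arrays, and none of the 24 comparisons passed. These groups were pairs of arrays, which allow few permutations. A comparison could not pass there on its own after adjustment, so this setting cannot decide whether the genes varied together.

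CD5 was called higher already before birth in the brainstem and hypothalamus, and its course was not tested against those of the other genes. In the brainstem its mean was 6.94 ± 0.077 at 80 d, 7.30 ± 0.21 at 100 d, 7.55 ± 0.30 at 120 d, 7.49 ± 0.36 at 130 d, 7.90 ± 0.18 at 145 d and 8.31 ± 0.38 in newborn lambs (log2, mean ± SD, n = 4). In the hypothalamus it was 7.34 ± 0.093, 7.43 ± 0.19, 7.74 ± 0.34, 7.66 ± 0.22, 7.96 ± 0.17 and 8.41 ± 0.18, and in the cortex 7.21 ± 0.14, 7.31 ± 0.18, 7.40 ± 0.17, 7.35 ± 0.15, 7.58 ± 0.25 and 8.11 ± 0.40 at the same ages. No step between neighbouring ages passed in these regions.

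The 4 brainstem arrays were 6.94, 6.94, 7.04 and 6.85 at 80 d, 7.66, 8.03, 8.06 and 7.85 at 145 d, and 8.55, 8.61, 8.29 and 7.78 in newborn lambs. In the hypothalamus they were 7.36, 7.46, 7.28 and 7.26, then 8.14, 7.73, 7.97 and 8.0, then 8.17, 8.48, 8.38 and 8.60. In the cortex they were 7.29, 7.26, 7.29 and 7.0, then 7.33, 7.40, 7.85 and 7.71, then 7.79, 8.13, 7.86 and 8.67. The 80 d arrays lay below all 145 d and all newborn arrays in these 3 regions. The newborn array at background for GNLY was the lowest for CD5 in the cortex (7.79) and hypothalamus (8.17), but not in the brainstem (8.55), and in the hippocampus it was the highest (9.36).

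From 80 to 145 d CD5 rose by 0.96 ± 0.19 in the brainstem (adjusted p = 0.00037) and 0.62 ± 0.15 in the hypothalamus (0.0079), beside 17% and 5.68% of all genes called higher. The hypothalamus call depended on the probe, with 0.63 for probe 2 (0.040) and 0.61 for probe 1 (0.071). It was the only one of the 5 genes called in this comparison, and the differences of 0.36 in the cortex and 0.56 in the hippocampus did not pass (0.071 and 0.64), beside 18.7% and 2.12% of all genes called higher there. From 80 d to newborn it rose by 0.90 ± 0.16 in the cortex (7.2e-05), 1.36 ± 0.19 in the brainstem (7.0e-06) and 1.07 ± 0.15 in the hypothalamus (3.7e-05), and these 3 calls held when any single array was left out. The 2 nearly identical CD5 probes disagreed on brainstem newborn replicate 4, an array that stands apart, with 6.55 and 9.01. Without it the brainstem rise was 1.54 (5.3e-07).

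Hippocampus CD5 rested on the arrays that stand apart. The values were 7.14, 7.03, 6.97 and 7.05 at 80 d, 7.10, 7.35 and 8.65 at 100 d, 7.03, 7.97, 7.49 and 9.22 at 120 d, 7.18, 7.71, 9.27 and 7.35 at 130 d, 7.37, 7.38, 7.64 and 8.03 at 145 d, and 7.93, 7.37, 9.36 and 7.68 in newborn lambs. The highest array of each age from 100 d on was the one that stands apart. All newborn arrays lay above all 80 d arrays, but the difference of 1.04 ± 0.50 did not pass (adjusted p = 0.29). Without these arrays it was 0.61 with an adjusted p of 0.075.

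**Figure D4:**
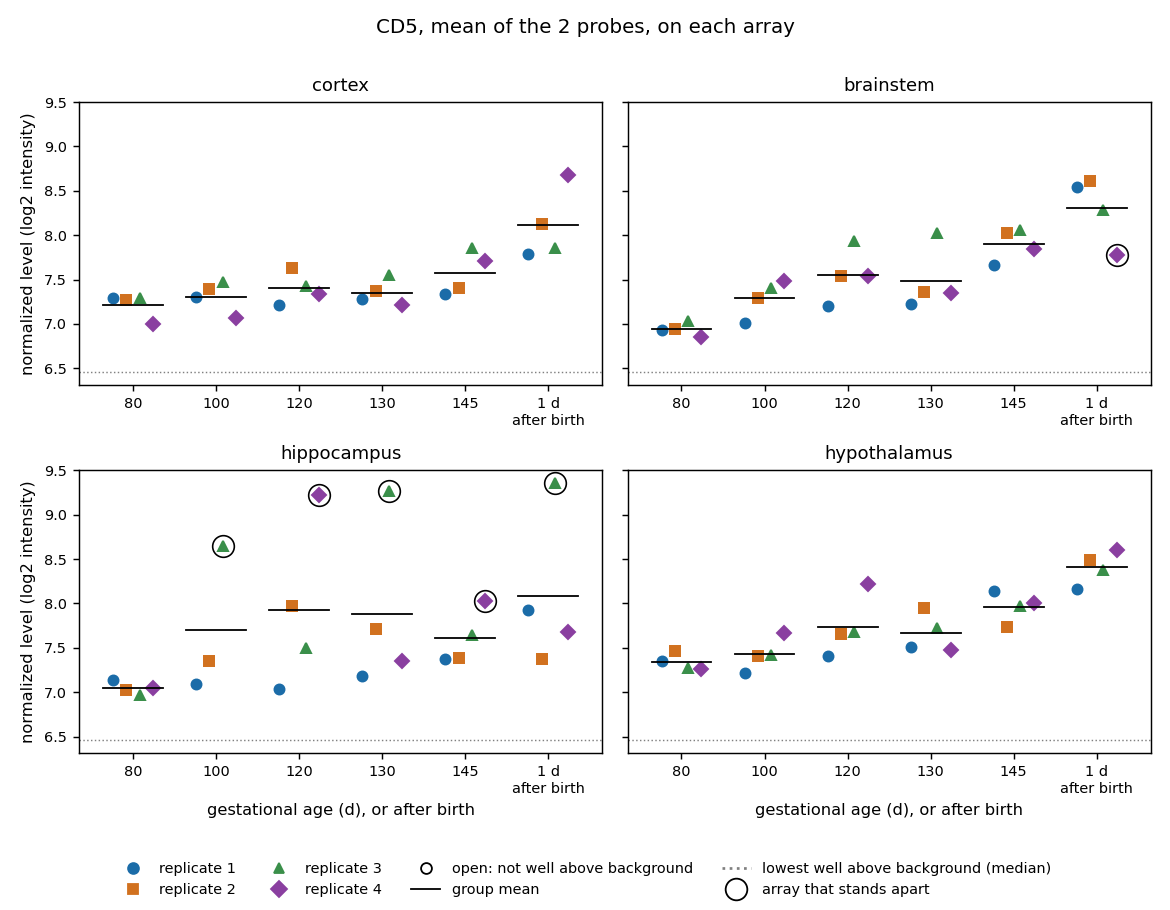
Log2 intensity of CD5 on each array, by age and region; bars are group means and circled arrays are those that stand apart from the rest of their region. In the cortex, brainstem and hypothalamus the 80 d arrays lie below all 145 d and newborn arrays, and in the hippocampus the circled arrays are the highest of their age.

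Over all ages at once, the F test, which sets 80 d against the 5 later ages, called CD3D, CD5 and GNLY in the cortex (adjusted p of 0.035, 0.00066 and 0.0054), CD5 and GNLY in the brainstem (0.00010 and 0.0089) and in the hypothalamus (0.00029 and 0.014), and GNLY in the hippocampus (0.016). The shares of all genes called were 45.8%, 40.5%, 16% and 3.07%. GNLY was the 1 gene called in all 4 regions, although in the hippocampus its adjusted p was 0.058 from the mRNA pair alone, and 0.083 and 0.093 without newborn replicate 1 or 4. In the hypothalamus it was 0.063 and 0.066 without newborn replicate 2 or 4. CD3E and CD3G were called in no region by this test, with adjusted p of 0.065 and 0.068 in the cortex and higher elsewhere. All newborn arrays lay above all 80 d arrays for CD3G and CD5 in the cortex (beside 16.4% of all genes), CD5 and GNLY in the brainstem (17.1%), CD3E, CD5 and GNLY in the hippocampus (6.01%), and CD3G, CD5 and GNLY in the hypothalamus (9.89%), with GNLY averaged over its probes and its lowest newborn array at background in the mRNA pair.

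The regions were not told apart by these genes. In a fit over all 95 arrays the change from 80 d to newborn differed between regions for 0 of 5 genes (adjusted p of 0.83 to 0.99), beside 12.9% of 12316 genes, and no gene had an unadjusted p under 0.05. The level at 80 d (adjusted p of 0.695 to 0.996) and in newborn lambs (0.671 to 0.921) differed for 0 of 5 as well, beside 25.4% and 29.9% of genes. In newborn lambs the CD5 means ran from 8.08 ± 0.88 in the hippocampus and 8.11 ± 0.40 in the cortex to 8.31 ± 0.38 in the brainstem and 8.41 ± 0.18 in the hypothalamus, and at 80 d from 6.94 in the brainstem and 7.05 in the hippocampus to 7.21 in the cortex and 7.34 in the hypothalamus. None of the differences between neighbours in this order, or between any 2 regions for any of the genes, passed (lowest adjusted p = 0.42). Without the arrays that stand apart CD5 differed between regions, in its change (adjusted p = 0.027) and in its newborn level (0.0010). With the replicate number within an age taken as the animal, as a random block, 0 of 5 passed in each of the 3 comparisons. Each region was run on slides of its own, so region and slide cannot be told apart.

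Other parts of the T cell receptor complex were measured by probes chosen from their descriptions after these had been seen. The probe of the receptor's alpha chain was well above background on all arrays and rose in every region from 80 d to newborn, by 3.58 in the cortex, 2.77 in the brainstem, 3.55 in the hippocampus and 3.22 in the hypothalamus. Most of this rise lay before birth. From 145 d to newborn the probe changed by 1.22, 0.79, 1.39 and 0.16 in the same order, and was called higher in no region. Its newborn values were 9.84, 12.58, 11.19 and 11.51 in the cortex, 11.46, 13.20, 12.21 and 12.01 in the brainstem, 12.94, 11.80, 11.49 and 11.84 in the hippocampus and 12.11, 13.75, 12.69 and 12.27 in the hypothalamus. The array highest in CD3D and CD3E was highest here in every region. Of 15 probes for beta chains 3 to 6 passed the filter in a region, with 2 called higher in the brainstem and 1 called lower in the cortex. Of 6 gamma chain probes 1 passed the filter in each region, and it was called higher in the brainstem alone. Of 20 delta chain probes none was called, with 6 to 8 kept in a region. The 6 probes for T19, a scavenger receptor of sheep gamma-delta T cells, were all called higher in the cortex (median 0.51) and brainstem (1.99). None was called in the hippocampus or hypothalamus. From 145 d to newborn no T19 probe was called higher, with changes of −0.02 to 0.34 in the cortex and −0.45 to −0.04 in the brainstem. From 80 d to newborn, 20%, 21.7%, 2.38% and 8.31% of all probes were called higher in the cortex, brainstem, hippocampus and hypothalamus. These shares thus differed between the regions too.

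Of the 37 other T cell genes listed, 6 had a probe with their name (CD247, CD28, CD40LG, CTLA4, LCK and GATA3). Of these 6, 4 to 5 passed the filter in a region, and none rose from 80 d to newborn. The receptor chains are on the list too, but their probes were found by description and are given above. CD247, the zeta chain of the CD3 complex, fell by 0.54 in the cortex (adjusted p = 0.00020). LCK, the kinase that phosphorylates the CD3 chains, fell by 0.35 in the cortex (0.0050) and by 0.78 in the brainstem (0.0028). GATA3, a transcription factor of T cells that neurons of the brainstem also use, fell by 0.89 in the brainstem (0.037). Of the other 22 cytotoxic lymphocyte genes listed, such as the granzymes, none had a probe with its name. Of 14 cytokine genes, 9 had a probe and 5 to 9 passed the filter. IL18, a cytokine made mainly by myeloid cells, rose by 0.60 in the cortex (0.00082), TNF rose by 0.51 there (0.013), and no cytokine gene was called in this comparison in the other regions. The F test of age called IL18 in the brainstem too (adjusted p = 0.030).

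Markers of other cells rose in the same comparison. Among the 12 myeloid and microglia markers listed, CD14 and ITGAM had a probe. CD14, the coreceptor for bacterial lipopolysaccharide on monocytes and macrophages, rose by 1.19 in the cortex (adjusted p = 0.00026), 0.96 in the brainstem (0.00011) and 0.55 in the hypothalamus (0.045), and was 0.48 higher in the hippocampus (0.24). ITGAM, an integrin chain of myeloid cells, rose by 0.55, 0.40 and 0.45 in the first, second and last of these regions, with 0.16 in the hippocampus (0.65). CD14 in newborn lambs was 7.66, 8.72, 9.23 and 9.36 in the cortex, 8.35, 8.55, 8.77 and 9.47 in the brainstem, 8.49, 8.94, 8.24 and 8.30 in the hippocampus and 7.76, 8.74, 8.54 and 8.69 in the hypothalamus. The lowest array of each region was the one at background for GNLY. The mean of CD14 and ITGAM ranged from 6.92 to 7.20 at 80 d and 7.29 to 8.26 in newborn lambs in the cortex, from 7.24 to 7.34 and 7.61 to 8.47 in the brainstem, from 7.16 to 7.59 and 7.42 to 7.84 in the hippocampus, and from 7.18 to 7.41 and 7.36 to 8.08 in the hypothalamus. CR2, a complement receptor of B cells and the 1 of 9 B cell markers with a probe, rose by 0.60 in the cortex (0.0051) and was called in no other region. The part of myeloid or B cells in the values of CD5, and of natural killer cells in those of GNLY, was not tested.

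Few markers of the labelled tissue had a probe. Of 8 astrocyte markers 4 had one and were kept in every region. In newborn lambs 4 were called higher than at 80 d in the cortex, 2 in the brainstem, 3 in the hippocampus and 2 in the hypothalamus. There AQP4, a water channel, was called lower (−3.28 ± 0.92, SE), with spots left out in both groups, so that this call rests on fewer arrays. GFAP, a filament protein of astrocytes, rose by 3.45, 2.85, 2.80 and 3.96 in the same order of regions. Of 12 neuron markers NEUROD1, a transcription factor of newly formed neurons, had a probe and changed by −1.16, −4.44, −2.18 and −1.42, all called.

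Over the 24 group means, each region centred on its own mean, CD3D was most like GNLY (r = 0.96), PSMB8 (0.95) and OVAR (0.94), and CD3E most like OVAR (0.89), CD3D (0.89) and OVAR-DQA1 (0.87). CD3G was most like OVAR-DQA1 (0.91), MHCII-DRB1 (0.90) and PSMB8 (0.88). PSMB8 is a subunit of the immunoproteasome, and the OVAR and MHCII names are those the files give to genes of the sheep major histocompatibility complex. GNLY was most like CD3D (0.96), SELP (0.94), the P-selectin of platelets and endothelium, and CLEC4E (0.94), a myeloid lectin receptor. CD5 differed, with PDXK (0.92), C5aR (0.89), a complement receptor, and GFAP (0.87) as the most like it. These values describe group means that share arrays and ages, and no test was made of them.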

How the data were processed

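The authors labelled total RNA with Cy3 and hybridized it to single-colour Agilent sheep arrays. They deposited a scanner file for each array with the mean and background intensity of every spot, before normalization between arrays. Its header gives 10.1.1.1 as the version of the grid placement, while the methods name an earlier version of Feature Extraction. A table of log2 values that the authors had normalized with limma was deposited too and served as an alternative. From the files, background was removed by normexp (offset 50), and values were quantile normalized over all 95 arrays (limma 3.58.1, R 4.3.3). In each region only probes were tested that reached 1.1 times the 95th percentile of 77 negative controls on 4 or more arrays, and probes of a gene were averaged. No member spot was saturated or marked as an outlier. An array measures signal over background, and precision is limited by how many arrays a group has.

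Region, age and replicate were taken from the labels. In limma (lmFit, eBayes), each region was fitted with all its ages, and a fit with 24 groups compared regions. A gene was called at a Benjamini-Hochberg adjusted p under 0.05 over all genes, and all adjusted p not said to come from permutation are limma's. The labels tie arrays to animals only by the replicate number. By the counts in the methods, the arrays of a region came from different animals, with a set of twins in each group. Within a region p-values thus measure the spread between animals, with twins counted as independent. In the fit that compares regions, arrays of the same animals are treated as independent.

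The genes named are the 6 members; from the companion lists, those that passed the F test of age in a region, up to 4 a list; and the 3 genes most like each member. TNF, CD40LG, CD28, CTLA4, AHSP, EPOR and AQP4 were named beside them, and the T cell receptor probes were picked, after values or descriptions had been seen. Members and lists were chosen with earlier results of these data known. The fit was tested on simulated data with 200 genes changed by 1 on the log2 scale. From 80 d to newborn it recovered 92% of them for the cortex (12900 genes), 79% for the brainstem (12776), 30% for the hippocampus (12687) and 65.5% for the hypothalamus (12930), while unchanged genes made up 5.64%, 5.95%, 6.25% and 4.38% of the calls. The simulated arrays were independent, with the same spread of a gene at every age. The members spread unequally over the ages, so these shares need not hold for them. Alternatives were an offset of 16, the processed signal minus the 75th percentile of each array, quantile normalization within a region, the authors' table, no filter, the brightest probe, each probe on its own, the replicate number or the slide as a block, a trended robust fit, leaving out each array, and, added after the data had been seen, GNLY from the mRNA probes alone and leaving out the arrays that stand apart.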

Additional observations from a re-analysis of the deposited data

Results flagged for a closer look

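In each group of 4 arrays the highest and the lowest value were compared with the nearest other value by Dixon's ratio, which chance passes in about 1 group in 20. Of 138 groups and genes tested, 20 passed, or 14.5%, and the genes share arrays.

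At 120 d the array with the high GNLY value stood apart from the other 3. The GNLY mRNA pair was 8.58 in cortex replicate 2, 9.52 in brainstem replicate 3, 8.19 in hippocampus replicate 2 and 9.02 in hypothalamus replicate 4. The GNLY gene value did so in cortex (8.09), brainstem (8.27) and hypothalamus (7.97). In brainstem the same array stood apart for CD3D (8.06), CD3E (8.79) and CD3G (8.44), and in hypothalamus for CD3D (8.37) and CD3E (8.84). The cause was not tested.

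The other values were at other ages. In brainstem at 100 d replicate 4 was high for CD3G (6.77) and for the GNLY mRNA pair (6.77), at 130 d replicate 4 was high for CD3D (7.17) and replicate 3 for CD5 (8.03), and at 80 d replicate 3 was low for CD3E (6.99). In cortex CD3E was low in replicate 1 at 130 d (7.16) and CD5 low in replicate 4 at 80 d (7.0). In hippocampus newborn replicate 1 was high for CD3E (9.12).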

How the results depend on the processing

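The rise of GNLY from 80 d to newborn and that of CD5 outside the hippocampus kept direction and call whichever single array was left out. The F test called 2 to 5 genes in the cortex, 2 to 4 in the brainstem, 0 to 1 in the hippocampus and 1 to 2 in the hypothalamus when 1 array was left out, and the comparison of newborn with 80 d called 4 to 5, 2 to 5, 1 to 3 and 2 to 4. The comparisons between regions called 0 in every such case. With the brightest probe of each gene the F test called 0 in the brainstem and 0 in the hippocampus, and with GNLY from its mRNA probes alone 0 in the hippocampus. The brightest GNLY probe is EST probe 1, with which the change from 145 d to newborn in the cortex reversed, to −0.0036 (adjusted p = 1.0), as it did with that probe on its own, and the rise from 80 d to newborn was no longer called in the cortex (0.32) or the hippocampus (0.91).

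The processed signal minus the 75th percentile has no offset, and all changes were larger with it. GNLY changed from 80 d to newborn by 3.99, 4.01, 4.61 and 4.40 in the 4 regions, 4 genes were called in the hippocampus, and 7 of 24 pairs varied together. It moved the median of all genes in the hypothalamus from −0.03 to −0.13. With the slide as a block 1 gene was called in the hippocampus and 4 in the hypothalamus. In the hypothalamus that block also takes the high array at 120 d, alone on its slide, out of the spread. With deviations from slide and age means 0 pairs passed, but the permutations were too few there for a pair to pass on its own. Without the arrays that stand apart CD5 made 1 gene whose change and 1 whose newborn level differed between regions.

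Replicate numbers were not taken as pairing the samples, since not every same-numbered correlation was over 0.1. Deviations of same-numbered arrays of different regions correlated with a median r of −0.0073 to 0.12 (lowest −0.34), higher than the −0.072 to −0.013 of other numbers for each 2 regions. Of 23 or 24 arrays, 3 to 14 correlated best with their own number, where 1 in 4 would without pairing. The newborn GNLY mRNA pair had its replicates in the same order in cortex, brainstem and hypothalamus. These are hints from the data, not from the labels. With the replicate block the F test called 4, 2, 1 and 2 genes in the 4 regions, and newborn against 80 d called 5, 3, 1 and 2.

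Dim signal limits these results. CD4 lay at background, the GNLY mRNA pair did so on most fetal arrays and CD3G on most arrays at 80 and 145 d, and changes from there are bounds. With 4 arrays a group, 1 newborn array moved the spread of a region.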
